A study of Brassica rapa subsp. chinensis with 6 samples.

Results

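Pectin, the acidic polysaccharide that fills the plant cell wall and glues neighbouring cells together, is altered after it is laid down by enzymes that remove its methyl and acetyl groups or cut its backbone. Genes for these enzymes, for their protein inhibitors and for a pectin synthesis enzyme were compared between a chlorotic pakchoi mutant and its wild type. The members were all genes of the deposited table whose sequence match text names pectin, pectate, polygalacturonase, a galacturonosyltransferase, rhamnogalacturonan or a methylesterase symbol (PME), with texts naming a kinase left out. The rule used no measured value, but every gene of the table had already been called different by the authors. It found 34 genes of 2958.

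Pakchoi is *Brassica rapa* subsp. *chinensis*. The wild type is strain 564 and the mutant is strain 564Y. RNA came from aboveground parts at the trifoliate stage, with 3 libraries per strain that the labels describe as independent biological replicates. The protocol text also speaks of several time points, but the labels give 1 stage for all libraries. The sources used here give neither the mutated gene nor the origin of the mutant, and each genotype is represented by 1 strain. Since whole shoots were sequenced, fewer cells of a type and less RNA per cell cannot be told apart.

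Homogalacturonan, the main pectin, is exported to the wall with many of its sugars methyl-esterified. Pectin methylesterases remove the methyl groups, and small inhibitor proteins bind these enzymes and block them. Demethylated stretches can be bridged by calcium, or cut by pectate lyases and polygalacturonases, while acetylesterases remove acetyl groups. These steps are known for their part in cell expansion, cell separation and defence. The match texts cover these roles with 12 methylesterases, 5 methylesterase inhibitors, 3 acetylesterases, 7 pectate lyases, 3 polygalacturonases, 3 polygalacturonase inhibitors and 1 galacturonosyltransferase. Texts that name rhamnogalacturonan were found for 0 genes.

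Values called normalised reads are the authors' base means, that is, reads per library after division by a size factor. A value per library was worked out from the group means, where only 1 set of whole reads fitted them. This gave all 3 wild type libraries for all 34 genes and all 3 mutant libraries for 27. The 7 genes without mutant library values are the 7 most abundant in the mutant, and for these the authors' mutant mean is given alone. The libraries are called A, B and C within a strain, with no link to the replicate numbers of the labels. In the wild type the pectin genes held 48545 reads over the 3 libraries, and in the mutant 93566.

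Of the 34 genes, 26 rose in the mutant and 8 fell. The share that rose, 76.5%, compares with 59.7% of all 2958 genes in the table. The 8 genes that fell compare with 40.3% of the table. All 8 inhibitor genes rose, while 18 of 26 enzyme genes rose. Among genes with reads in both strains, 33 pectin genes had a median log2 ratio of 1.49 in the authors' deposited table, against 1.15 for the 2810 such genes of the table. The rises were about as large as elsewhere in the table, with a median log2 ratio of 1.63 for 26 pectin genes against 1.70 for 1681 genes. The falls with reads in both strains were smaller, with a median of -1.10 for 7 pectin genes against -1.54 for 1129 genes. Of these 7 genes, 5 were methylesterases, with a median of -1.07. Genes with 0 mutant reads are left out of both medians, among them Bra014620, which was at least 19.7-fold lower at a limit of 3 reads. The 27 genes with library values in both strains had no overlap between the strains, as did 100% of the 2619 such genes in the table, which had been selected for a difference. In an edgeR fit to the 2619 genes with library values, the 27 pectin genes among them split into 20 higher and 7 lower at the authors' limits. All 2619 genes gave 1484 higher and 1131 lower. TMM scaling lowered the median log2 ratio of all fitted genes from 1.12 to 0.70. With it 14 pectin genes were higher and 7 lower, against 980 and 1131 of all fitted genes. A log2 ratio of at least 2 in either direction was reached by 12 pectin genes, 10 of them higher, against 37.8% of the table, of which 65% were higher. Summed over the 34 genes, normalised reads were 16559 in the wild type against 30142 in the mutant, a ratio of 1.82. The same ratio over the whole table was 1.17.

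**Figure D1:**
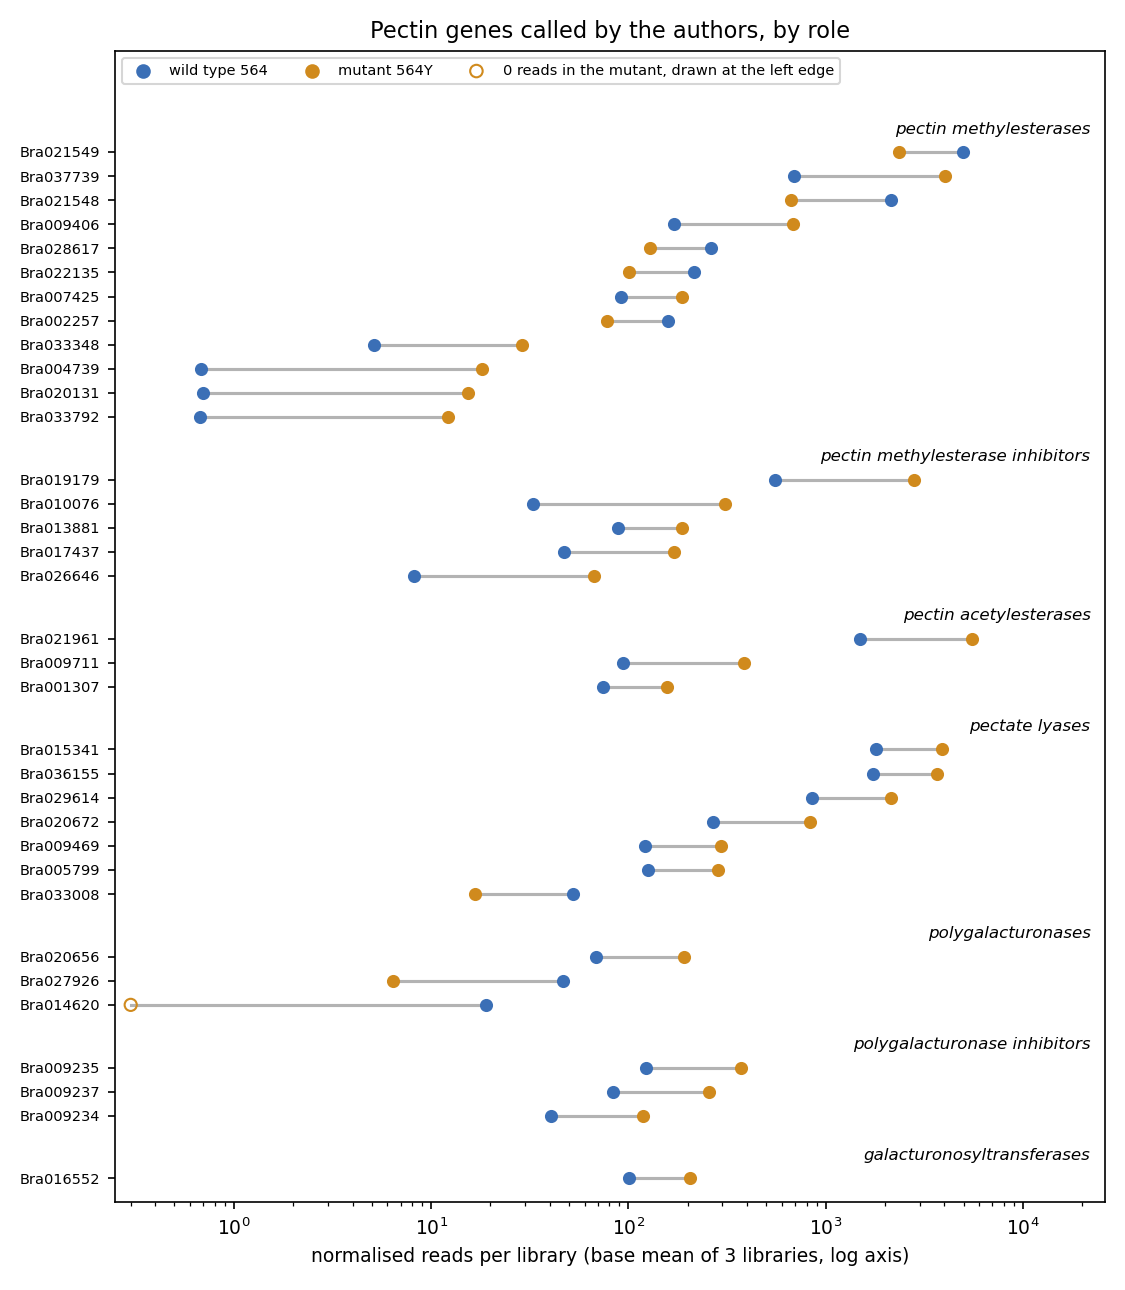
Normalised reads per library on a log axis (the authors' base means of 3 libraries) for the 34 pectin genes, grouped by role, with blue points for the wild type 564 and orange points for the mutant 564Y. Orange lies to the right of blue for 26 genes and to the left for 8, and the open circle marks Bra014620, which had 0 reads in the mutant.

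Pectin methylesterases, the enzymes that demethylate homogalacturonan, went both ways, with 7 genes higher in the mutant and 5 lower, a share of 58.3% higher that is close to the 59.7% of the table. Their summed level was 8703 normalised reads in the wild type against 8323 in the mutant, a ratio of 0.956, while its make-up differed. The 2 genes matched to Arabidopsis PME3 held 81.7% of the summed methylesterase reads in the wild type against 36.4% in the mutant. The gene Bra037739 held 7.93% and 48.6%. Per kilobase of coding length the sums were 5086 and 5064 normalised reads, and the PME3 pair held 78.5% and 33.6%. These sums cover called genes only, so methylesterases that the authors did not call are not in them. With genes selected for a change and moving in both directions, some shift in make-up was fixed in advance.

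**Figure D2:**
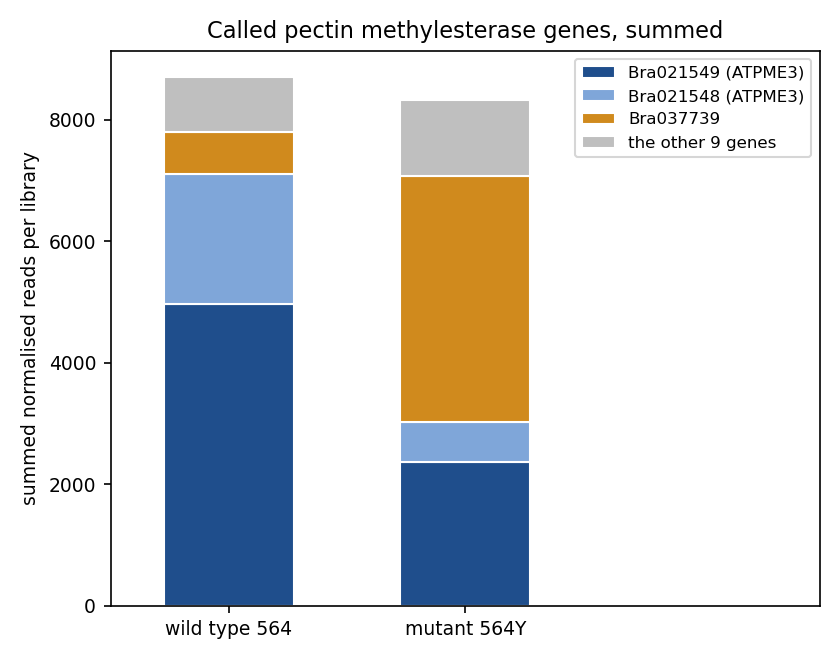
Summed normalised reads per library of the 12 called methylesterase genes in the wild type 564 and the mutant 564Y, stacked by gene, from the authors' base means with no error shown. The bars reach 8703 and 8323, and the orange part, Bra037739, grows from 690.0 to 4042 while the blue parts, the PME3 pair, shrink from 7106 to 3026.

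Bra021549 was the most abundant of the 34 called pectin genes in the wild type, and its text reads ATPME3, pectinesterase. It stood at 5009, 4892 and 5001 normalised reads in wild type libraries A, B and C, and the authors' mutant mean was 2358. The fall was 2.11-fold, with a log2 ratio of -1.07 and an adjusted p of 4.55e-33 in the authors' deposited table. Bra021548 carries the same text, the next lower identifier and the same coding length of 1779 bases. Its libraries held 2103, 2200.5 and 2113 normalised reads in the wild type against 621, 743 and 642 in the mutant. The strains did not overlap in this gene, as in 100% of the 2619 genes of the table with library values. The fall was 3.20-fold (log2 ratio -1.68, SE 0.08 over libraries). The authors' deposited table gives this gene an adjusted p of 3.48e-62. No source used here says how reads that fit more than 1 gene were counted. If the sequences of the pair are similar, which was not tested, the split between them is uncertain.

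Bra037739, named only as a pectinesterase family protein, was the called methylesterase with the highest level in the mutant. Its wild type libraries held 669, 661 and 739.8 normalised reads, against a mutant mean of 4042. The rise was 5.86-fold, with a log2 ratio of 2.55 and an adjusted p of 1.21e-151 in the authors' deposited table, the smallest of the 34 genes. Bra009406, matched to PME47, held 179, 169.9 and 163 normalised reads in the wild type libraries and 607, 709 and 737 in the mutant libraries. That is a 4.01-fold rise (SE 0.09 over libraries on the log2 scale). Its text names an inhibitor part beside the enzyme, since many plant methylesterases are made with an inhibitor-like domain in front of the catalytic one.

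The methylesterases of middle abundance changed by little more than the authors' limit of 1 on the log2 scale. Bra028617 held 261, 251 and 277 normalised reads in the wild type against 116, 133 and 138 in the mutant. Bra022135 held 207, 200.4 and 236 in the wild type against 75.9, 103 and 122 in the mutant. Bra002257 held 174, 146 and 157 in the wild type against 69.2, 96.2 and 68.4 in the mutant. These 3 genes fell by similar amounts, with log2 ratios of -1.03, -1.10 and -1.03 in the authors' deposited table. Bra007425 went the other way, from 77.9, 84.4 and 113 normalised reads to 169, 220.3 and 175, a 2.05-fold rise. Each of these 4 genes had its groups apart, as had 100% of the 2619 genes of the table with library values. In Bra022135 and Bra007425 the SE over libraries was 0.21 on the log2 scale. That is wide next to a ratio this close to the limit.

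Another 4 methylesterase genes, named here because their values stood out, were nearly silent in the wild type. Bra004739, Bra020131 and Bra033792 had 2 wild type reads each, and in each gene both reads lay in a single library, a different one for each gene. In the mutant they held 13.4, 15.4 and 25.4 normalised reads (Bra004739), 15.4, 17.3 and 13.7 (Bra020131), and 8.64, 15.4 and 12.7 (Bra033792). Together the 3 genes had 6 wild type reads and 142 mutant reads. The folds were 26.7 (95% interval 6.99 to 224), 22.3 (5.94 to 193) and 18.1 (4.64 to 154). These exact binomial intervals cover counting error only and are wide because of the 2 reads. Bra033348 rose 5.65-fold (interval 3.26 to 10.5), from 6.07, 2.03 and 7.28 normalised reads to 18.3, 38.5 and 30.3. The 3 genes with 2 wild type reads had the largest log2 ratios of the methylesterase group, but all 4 together held under 1% of its reads in either strain.

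Methylesterase inhibitors, small proteins that share their fold with inhibitors of invertase, all rose, where 59.7% of the table rose. The 5 genes had coding lengths of 597 to 624 bases and summed to 728 normalised reads in the wild type against 3530 in the mutant, a ratio of 4.85. Set against the called methylesterases per kilobase of coding length, the called inhibitors stood at 0.236 in the wild type against 1.15 in the mutant. Genes that the authors did not call are in neither sum, and every summed gene had been selected for a change. The ratio thus does not give the balance of the whole families. The texts read invertase/pectin methylesterase inhibitor family, so which of the enzymes each protein inhibits is not known from the table.

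Bra019179 held 75.7% of the normalised reads of the called methylesterase inhibitors in the wild type against 79.1% in the mutant. Its wild type libraries held 503, 614 and 537 normalised reads, against a mutant mean of 2794, a 5.07-fold rise with an adjusted p of 3.66e-119 in the authors' deposited table. Bra010076 rose the most of the group, 9.44-fold, from 34.4, 18.3 and 45.8 normalised reads to 411, 267 and 252. Its log2 ratio was 3.24 (SE 0.42 over libraries), and the mutant libraries alone spanned a wide range. Bra026646 rose 8.21-fold, from 10.1, 6.10 and 8.32 normalised reads to 95.1, 57.7 and 48.8. In both genes mutant library A was the highest and wild type library B the lowest. Bra017437 rose 3.64-fold, from 49.6, 51.9 and 39.5 normalised reads to 159, 201 and 152. Bra013881 rose 2.11-fold, from 103, 71.2 and 92.6 to 188, 201 and 175, and so had the smallest change of the 5 genes.

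**Figure D3:**
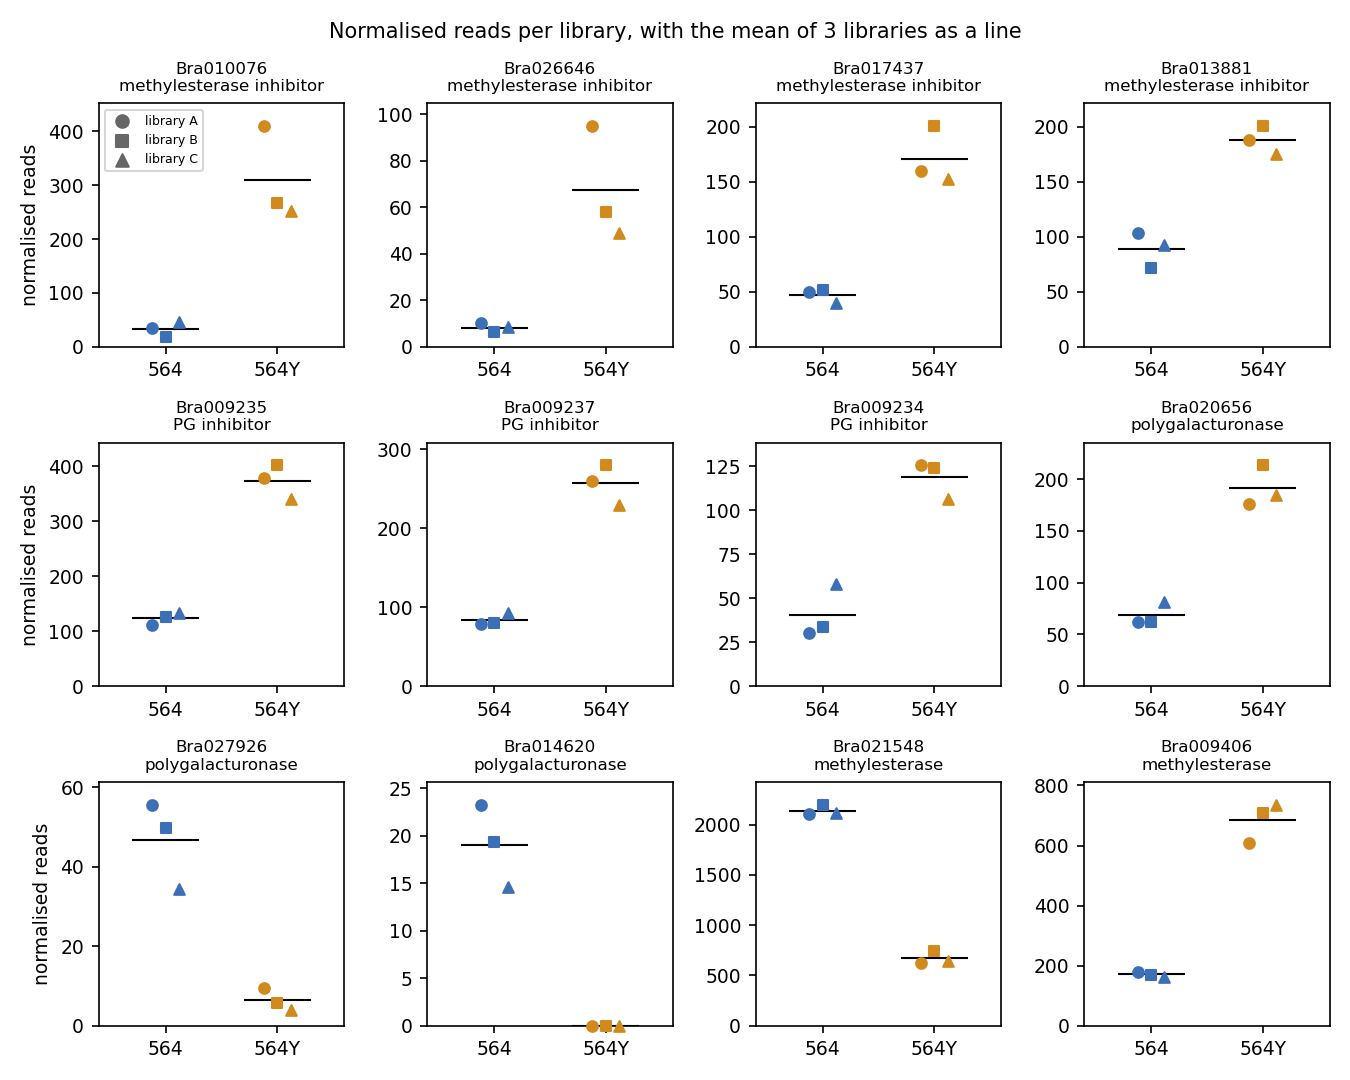
Normalised reads in each library (circle A, square B, triangle C) of the wild type 564 in blue and the mutant 564Y in orange for 12 pectin genes, with the mean of 3 libraries as a line and linear axes from 0. In each panel the strains are apart, as in 100% of the 2619 genes of the table with library values. Mutant library A stands above the other 2 in Bra010076 and Bra026646, and Bra014620 is at 0 in the 3 mutant libraries.

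Pectin acetylesterases, which strip acetyl groups from the pectin backbone, all rose, beside 59.7% of the table. Bra021961 was the most abundant of the 34 called pectin genes in the mutant. Its wild type libraries held 1444, 1413 and 1641 normalised reads, the mutant mean was 5502, and the 3.67-fold rise had an adjusted p of 3.17e-94 in the authors' deposited table. Bra009711 rose 4.10-fold, from 74.9, 116 and 91.6 normalised reads to 386, 379 and 394. Bra001307 rose 2.11-fold, from 71.9, 67.1 and 85.3 to 158, 149 and 166. The summed level of the 3 genes was 3.62 times as high in the mutant. Their share of the normalised reads of the 34 called pectin genes went from 10.1% to 20.1%.

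Pectate lyases, which cut demethylated homogalacturonan, had 6 genes higher and 1 lower, beside 59.7% higher in the table. Their summed level was 4977 normalised reads in the wild type against 11091 in the mutant, a ratio of 2.23, and the 3 leading genes supplied most of it in both strains. Bra015341 went from 1906, 1755 and 1764 normalised reads in the wild type libraries to a mutant mean of 3872. Bra036155 went from 1607, 1749.8 and 1876 to 3652, and Bra029614 from 831, 936 and 803 to 2135. The folds of these 3 genes were 2.14, 2.09 and 2.49, with adjusted p-values of 4.43e-33, 5.53e-31 and 3.83e-40 in the authors' deposited table. The 2 leading lyases stood at 1395 and 1388 normalised reads per kilobase in the wild type against at 2988 and 2906 in the mutant, so their levels stayed close to each other in each strain.

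The less abundant lyases changed by similar amounts, with 1 exception in direction. Bra020672 rose 3.13-fold, the most of the group, from 278, 279.8 and 245 normalised reads to 940.4, 789.9 and 781. Bra009469 rose 2.42-fold, from 110.3, 117 and 138 to 255, 348 and 280.4. Bra005799 rose 2.24-fold, from 138, 90.5 and 151 to 263, 289 and 298. The lower gene was Bra033008, the least abundant of the 7, at 53.6, 50.9 and 52.0 normalised reads in the wild type against 17.3, 15.4 and 17.6 in the mutant. Its 3.11-fold fall had an adjusted p of 5.76e-05 in the authors' deposited table. The SE over libraries was 0.06 on the log2 scale, but only 52 mutant reads lay behind the fall. The edgeR fit gave this gene a wider SE of 0.28. The ratio of mutant to wild type was 0.321, with an exact binomial interval of 0.230 to 0.442 that covers counting error only. No lyase reached a log2 ratio of 2 in either direction, against 37.8% of the genes of the table.

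Polygalacturonases, which hydrolyse the same backbone, were called for 3 genes at low levels, and 2 of them fell, beside 40.3% of the table. Bra014620 held 23.3, 19.3 and 14.6 normalised reads in the wild type libraries and 0 in each mutant library, that is 56 reads against 0. With a limit of 3 reads over the mutant libraries it was at least 19.7-fold lower, a bound that leaves the counting error of the wild type reads aside. The authors' deposited table gives the gene an adjusted p of 4.91e-08. Bra027926 fell 7.25-fold, from 55.7, 49.8 and 34.3 normalised reads to 9.61, 5.77 and 3.91. Bra020656 rose 2.80-fold, from 61.7, 62.1 and 81.2 to 176, 214 and 185. Because the rising gene was the most abundant, the sum over the 3 genes was 134 ± 5.82 normalised reads in the wild type against 198 ± 18.8 in the mutant (SD, n = 3 libraries each), a higher sum although 2 of 3 genes fell.

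Polygalacturonase inhibitors are leucine-rich repeat proteins of the wall that bind the polygalacturonases of fungi and are counted among the defence proteins. All 3 called genes rose, beside 59.7% of the table, and by nearly the same factor. Bra009235 went from 111, 126 and 132 normalised reads to 378, 402 and 341. Bra009237 went from 78.9, 79.4 and 92.6 to 260.3, 280.0 and 229.6, and Bra009234 from 30.4, 33.6 and 58.3 to 126, 124 and 106. The folds were 3.03, 3.07 and 2.92, with SEs of 0.10, 0.11 and 0.32 on the log2 scale over libraries. Their identifiers are close in number, their coding lengths are 1005, 1011 and 996 bases, and their texts name inhibitor proteins 16 and 9 of *Brassica napus* and 2 of *Brassica rapa*. Whether reads shared between these genes tie their values together was not tested. Summed over the 3 genes, the libraries held 221, 239 and 283 normalised reads in the wild type against 765, 806 and 677 in the mutant.

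The galacturonosyltransferase gene Bra016552, matched to GAUT11, belongs to the family that builds homogalacturonan and was the only synthesis gene among the members. It rose 2.03-fold, from 94.1, 102 and 106 normalised reads to 179.6, 205 and 229.6 (log2 ratio 1.02, SE 0.11 over libraries). This is the smallest change of the 34 genes and lies just inside the authors' limit.

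**Figure D4:**
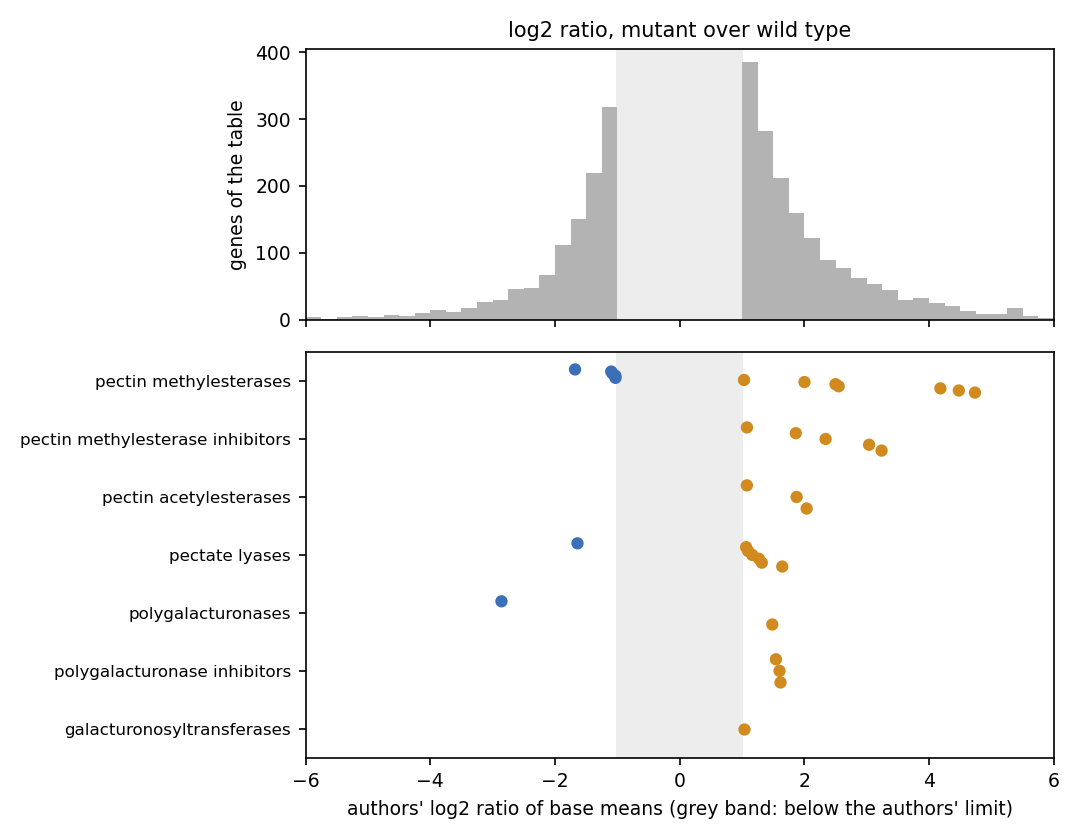
Log2 ratios of the authors' deposited table, mutant over wild type, for all genes with reads in both strains (upper panel, number of genes per bin; 59 genes beyond 6 in either direction are not drawn) and for 33 pectin genes by role (lower panel, orange for higher and blue for lower in the mutant). The inhibitors and acetylesterases lie only to the right, the methylesterases on both sides, and Bra014620, with 0 mutant reads, is not drawn.

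Genes of neighbouring steps were counted by lists of words. Enzymes that trim the side chains of pectin and other wall polysaccharides had 9 genes higher and 1 lower, beside 59.7% higher in the table. Their summed levels were 12689.5 normalised reads in the wild type against 48126 in the mutant. The 3 most abundant were the BXL1 genes Bra010038 (4.88-fold higher) and Bra020646 (2.81-fold), β-xylosidases that in Arabidopsis also act on arabinan, and the α-L-arabinofuranosidase Bra024311 (3.72-fold). The lower gene was β-xylosidase 4 (Bra037782), at 649.9 normalised reads in the wild type against 257 in the mutant. The word list for pectin precursor and side-chain synthesis matched only AUD1 (Bra003511), a UDP-glucuronate decarboxylase, through the word UDP-glucuron. This gene fell 3.07-fold, and whether it serves pectin synthesis was not tested. The word list for subtilases, proteases of which some process methylesterases, found 0 genes.

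Wall-associated kinases, receptors that bind pectin in the wall, had 4 genes lower and 1 higher, where 40.3% of the table was lower. The 4 lower genes, Bra025882, Bra025883, Bra025884 and Bra025886, have identifiers close in number and texts naming WAK1 or WAK2. Whether reads shared between them tie their values together was not tested, so they may not be separate cases. Bra025886 fell 3.25-fold. Bra025883 and Bra025882, both matched to WAK2, fell 268-fold (23 mutant reads) and 8.03-fold. The WAK1 gene Bra025884 fell from 578, 519 and 543 normalised reads to 1.92, 0.962 and 8.79. The size of that fall is poorly fixed, since 12 mutant reads lay behind it, most of them in library C (SE 0.92 over libraries on the log2 scale). The summed level of the 5 genes was 3568 normalised reads in the wild type against 296 in the mutant. The higher gene, Bra004195, was without reads in the wild type (0 reads). Against a limit of 3 reads over the wild type libraries it was at least 125-fold higher in 564Y, a bound that leaves the counting error of the mutant reads aside, with 128 ± 12.4 normalised reads in the mutant (SD, n = 3 libraries).

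Markers of other tissues were counted because many methylesterases and polygalacturonases are made in pollen or in lignifying tissue. All 5 genes of the list for lignified vascular tissue rose, beside 59.7% of the table. They comprised IRX6 (Bra023528), a gene of secondary walls, and 4 laccase genes, a family of which some members polymerise lignin, and their summed level ranged from 23.3 to 78.3 normalised reads in the wild type libraries and from 322 to 367 in the mutant libraries. Most of the wild type sum was IRX6, at 18.2, 68.2 and 40.6 normalised reads in the wild type libraries and 101, 92.4 and 105.5 in the mutant libraries. The LAC12 gene Bra009111 and the laccase 3 gene Bra034852 were nearly silent in the wild type, with 2 reads each, in 1 library. In the mutant Bra009111 held 65.3, 88.5 and 94.8 normalised reads and Bra034852 held 73.0, 56.8 and 56.7. The LAC5 gene Bra017010 also had 2 wild type reads and the other LAC12 gene, Bra028760, had 12. The pollen and anther list had 1 gene, TPD1 (Bra013852), which fell 4.88-fold, from a range of 222 to 277 normalised reads over the wild type libraries to 49.9 to 52.9. The root list had 1 gene higher, RHD2 (Bra029194), and 1 lower, PERK13 (Bra016218), which had 0 reads in the mutant, and the summed level ranged from 30.2 to 34.4 and from 47.1 to 66.4. The list for green tissue matched only CES101 (Bra001903), a receptor kinase whose long name holds the word RBCS, so the labelled tissue could not be checked against its markers in a table of called genes. The part of tissue composition in the changes of the pectin genes was not tested.

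Libraries of a strain spread about as much in the pectin genes as in the rest of the table. At a base mean of at least 20, the median coefficient of variation was 8.78% for 28 pectin genes in the wild type and 10.3% for 21 in the mutant, against 11.3% and 11.9% over the table. The widest were Bra010076 in the wild type at 42.0% and Bra026646 in the mutant at 36.5%. Among the 27 genes with all library values, the 20 higher genes summed to 1548 ± 92.6 normalised reads in the wild type against 4787 ± 147 in the mutant, and the 7 lower genes to 2894 ± 21.8 and 999 ± 93.8 (SD, n = 3 libraries each).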

How the data were processed

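The members, role groups and lists were chosen with earlier results of these data known. The submitters' processing notes list DESeq 1.10.1, Bowtie2 2.2.3 and TopHat2 2.0.12 without roles. They give no genome build for the table, and its annotation and read counter are not stated. The deposited table lists 2958 genes, each at an adjusted p-value under 0.001 and a log2 ratio of 1 or more in either direction. It holds, per the file headers, the mean read count (a signal averaged over 3 libraries), the base mean (a signal of reads divided by size factors), the log2 ratio, the p-value and its adjusted value. A base mean of 0.001 stood for 0 reads. All 2958 lengths are multiples of 3, hence coding lengths. Library depths are not known from the table.

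The main result is the authors' calls, counted by direction with no test of lists. Multiplying a mean read count by 3 gave whole reads within 1e-05. Genes with 1 read in a group gave starting size factors. These were refitted by weighted least squares over genes that only 1 set of whole reads fitted. The result was 0.988, 0.983 and 0.961 for the wild type and 1.04, 1.04 and 1.02 for the mutant. Exactly 1 set of whole library reads fitted both means for 2619 genes (88.5%) in both strains. On simulated libraries 0 solutions were wrong, but their size factors were drawn at random and were not those of the data. Mutant libraries A and B had nearly equal factors (1.041 and 1.039), a case the simulation was not set to. It gave 1 solution for 99.3% of mutant genes, so it was easier to solve than the data. Between libraries of a strain the chi-square per gene was 2.64 to 4.21, above counting noise. SDs and SEs are over these libraries. Only the labels say that these samples are biologically separate. The p-values set the difference between strains against the variation between libraries of a strain, with 1 strain per genotype. As alternatives, edgeR 4.0.16 (quasi-likelihood test, Benjamini-Hochberg adjustment) and DESeq2 1.42.0 were run on the worked-out counts with those size factors. In a role group of 8 or fewer all genes are named, otherwise the 8 of highest mean level and those with 0 reads in a strain, and in related lists the 3 of highest mean level. Other genes named were chosen after their values were seen. The reference gene table matched 0 identifiers, hence coordinates and sequences are absent. Word matching misses genes without a descriptive text.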

Additional observations from a re-analysis of the deposited data

How the results depend on the processing

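No paired analysis was possible because the worked-out libraries carry no replicate number. With log2 ratios of 2 or more in either direction, the pectin genes numbered 10 higher and 2 lower. By role, higher genes then numbered 3 methylesterase inhibitors, 1 acetylesterase and 4 side-chain hydrolases. Pectate lyases, polygalacturonases, polygalacturonase inhibitors and galacturonosyltransferases had 0 higher genes. Methylesterases, pectate lyases, side-chain hydrolases and the precursor word list had 0 lower genes. At an adjusted p under 1e-06, 2 methylesterases stayed higher and 0 pectate lyases lower. With a mean level of at least 20, 3 methylesterases were higher and 1 polygalacturonase lower. Without inhibitors and the text naming both, 17 pectin genes were higher.

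With the limits of the authors, 20 higher and 7 lower genes were called by edgeR among the 27 pectin genes with library values, and DESeq2 19 and 7. Over all 2619 genes with library values edgeR called 1484 higher and 1131 lower, and DESeq2 1463 and 1127. Abundant genes are missing there, so both tools called 3 pectate lyases and 2 side-chain hydrolases higher. Leaving out 1 library, edgeR called 16 to 20 pectin genes higher and 4 to 7 lower. Over all 2619 genes these fits called 1359 to 1436 higher and 1048 to 1081 lower. The 4 lower pectin genes came without mutant library A, where 1 methylesterase was lower against 4 with all libraries. Over all 2619 genes that fit called 1071 lower, against 1131 with all libraries. Methylesterases higher numbered 3 without mutant library B against 6 with all libraries, and the galacturonosyltransferase was not called without wild type library A or mutant library C. By role the ranges were 3 to 6 methylesterases higher and 1 to 4 lower, 3 to 4 methylesterase inhibitors, 2 to 3 pectate lyases, 0 to 1 galacturonosyltransferase and 2 side-chain hydrolases higher. TMM scaling over these selected genes took the median log2 from 1.12 to 0.70. It gave 14 higher and 7 lower pectin genes, and 980 higher against 1131 lower in the table in place of 1484 and 1131. Of 310 recomputed log2 ratios of single genes, 0 changed sign, and 0 of all 2619 fitted genes did so in the edgeR and DESeq2 fits. Every gene had been selected at a log2 ratio of 1 or more in either direction. A change of sign was thus unlikely from the start, and its absence is no trait of the pectin genes. The 27 genes had an adjusted p under 0.05 in each edgeR and DESeq2 fit, as genes selected for differing.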
